A study of Mus musculus with 13 samples.

Results

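The Hox genes are 39 homeobox genes that lie in 4 clusters of the mouse genome, HoxA on chromosome 6, HoxB on chromosome 11, HoxC on chromosome 15 and HoxD on chromosome 2. They were followed here through the 5-hydroxymethylcytosine (5hmC) regions whose nearest gene, by the authors' label, is a Hox gene of these clusters. Such a label was carried by 108 of the 181833 regions listed in 3 deposited tables, and 30 of the 39 genes had at least 1 region. The other 9 genes had none in any table.

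DNA came from knee cartilage of male B6;129S4 mice, a mixed strain, taken 6 weeks after surgery. MUT DMM knees came from mutant mice, labelled TET-/-, and had undergone DMM, the destabilisation of the medial meniscus, which makes a joint osteoarthritic. WT DMM knees had the same surgery in wild-type mice, labelled TET1+/+. WT sham knees came from wild-type mice and were only opened, and per the protocol each control is the opposite leg. The sources give 2 age ranges, 3 to 4 months and 4 to 6 months. The sources used here do not give how the mutant allele was made or in which cells it acts. 5hmC is not a measure of expression, so the labelled tissue was not checked against marker genes. Each table set 1 pair of groups side by side: WT DMM against WT sham with 17 Hox regions of 43378, MUT DMM against WT DMM with 48 of 65969, and MUT DMM against WT sham with 43 of 72486.

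Hox proteins are transcription factors that give cells their position along the body axis and along a limb. Genes at one end of a cluster (the anterior paralogues) act in the hindbrain and neck, and those at the other end (the posterior paralogues) act in the lower trunk, the limbs and the tail, in an order that follows their order on the chromosome. In limb skeletons, paralogues of group 10 shape the upper segment and those of group 11 the middle segment, which meet at the knee. The clusters are rich in CpG islands and are held by Polycomb and Trithorax proteins. TET enzymes, TET1 among them, oxidise 5-methylcytosine to 5hmC.

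The assay reads CCGG sites only, so the sequences that bear on the Hox regions are promoters with such sites. RefSeq (assembly GRCm38.p6, which shares its coordinates with mm10) gave promoters, from 250 bases before to 50 bases after the start, for 22 of the Hox genes, 24 promoters in all. The motif CCGG, which reads the same on both strands, was in 19 of these 24 (79.2%) and in 52.8% of all 32851 RefSeq promoters of this length. A listed Hox region overlapped 5 of the promoters. The 3 shown here carry more than 1 CCGG, written in capitals, and are given 5′ to 3′ on the gene's strand. They belong to Hoxd11 (chr2:74682073-74682372, plus strand), Hoxd10 (chr2:74691641-74691940, plus strand) and Hoxa6 (chr6:52208623-52208922, minus strand).
Hoxd11: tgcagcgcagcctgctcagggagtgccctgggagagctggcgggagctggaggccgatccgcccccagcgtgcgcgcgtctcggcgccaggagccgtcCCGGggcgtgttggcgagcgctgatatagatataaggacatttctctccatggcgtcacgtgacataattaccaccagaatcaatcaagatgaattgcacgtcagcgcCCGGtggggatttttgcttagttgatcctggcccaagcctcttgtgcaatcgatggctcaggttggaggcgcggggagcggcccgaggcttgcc
Hoxd10: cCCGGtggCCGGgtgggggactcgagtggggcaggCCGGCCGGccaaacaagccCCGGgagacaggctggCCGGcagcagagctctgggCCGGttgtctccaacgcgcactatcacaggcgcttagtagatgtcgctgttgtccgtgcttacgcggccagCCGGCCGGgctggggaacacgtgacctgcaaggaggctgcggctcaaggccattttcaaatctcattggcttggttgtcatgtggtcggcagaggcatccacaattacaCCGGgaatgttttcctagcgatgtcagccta
Hoxa6: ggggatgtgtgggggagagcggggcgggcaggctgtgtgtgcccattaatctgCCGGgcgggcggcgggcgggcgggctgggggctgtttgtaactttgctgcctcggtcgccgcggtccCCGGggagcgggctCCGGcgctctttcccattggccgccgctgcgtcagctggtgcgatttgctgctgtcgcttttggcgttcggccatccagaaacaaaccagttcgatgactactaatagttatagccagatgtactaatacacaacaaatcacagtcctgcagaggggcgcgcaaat
The Hoxd11 promoter held 2 CCGG sites and was overlapped by 3 regions, the Hoxd10 promoter held 10 sites and the Hoxa6 promoter held 3. The Hoxb1 promoter held 1 site and the overlapped Hoxa10 promoter held 0.

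Levels are the deposited normalized counts, which compare libraries within a table and not between tables. WT sham and WT DMM each had 3 libraries, named first-, second- and third-listed by their place in the joined values, and all values below are given in that order. MUT DMM had 2 distinct libraries, a deeper and a shallower one, given in that order, since a pair of its 3 deposited entries was identical. The authors' group averages of MUT DMM, used for the cluster medians below, count both identical entries. One WT DMM library, the first-listed, held hardly any reads and is called nearly empty below. A read of it was worth 15.7 normalized counts in the table against WT sham and 9.56 in that of MUT DMM against WT DMM. It stood at 0 in 16 of 17 Hox regions of the first table and in 35 of 48 of the second. For the shallower MUT DMM library 1 read was worth 3.55 normalized counts against WT DMM and 9.45 against WT sham, and it stood at 0 in 5 of 48 and 14 of 43 Hox regions. A value of 0 allows up to 3 reads, which is 47.0 and 28.7 normalized counts in these 2 tables for the first-listed WT DMM library, and 10.7 and 28.3 for the shallower MUT DMM library. Other libraries were worth 1.33 normalized counts a read or less. These limits cover counting error only.

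A region was called where the authors' adjusted p was under 0.05, which held for 107 of the 108 Hox regions, because the tables list only regions that had already passed a p-value. What a call adds here is therefore its direction. The sources used here do not give whether the authors' test counted both identical MUT DMM entries. The authors' p-values in the MUT DMM comparisons may thus count a library more than once. Of the Hox regions, 87 lay at distance 0 from the gene named by the authors. By RefSeq bounds, 61 lay inside the named gene, 6 inside another Hox gene only and 41 inside none.

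In WT DMM against WT sham, 5hmC was called higher at 12 Hox regions and lower at 4. In bulk cartilage, fewer cells with the mark and less of it per cell cannot be told apart. Over all 43378 regions of that table, 93.2% were called higher and 6.53% lower. MUT DMM had 33 Hox regions higher and 15 lower than WT DMM, where 34.2% of all listed regions were higher and 64.7% lower. It had 26 higher and 17 lower than WT sham, where 43.2% of all were higher and 56.1% lower. As a share of the called regions, 68.8% of the Hox regions were higher in MUT DMM against WT DMM, beside 34.6% of all. The corresponding shares were 60.5% and 43.5% in MUT DMM against WT sham, and 75% and 93.4% in WT DMM against WT sham. Most Hox calls were thus higher in both MUT DMM tables, where most calls over all regions were lower, while in WT DMM against WT sham most were higher in either set. The 3 comparisons share their libraries pairwise, and regions of a cluster are neighbours, so these shares are descriptions. No test of the Hox list was made.

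**Figure D1:**
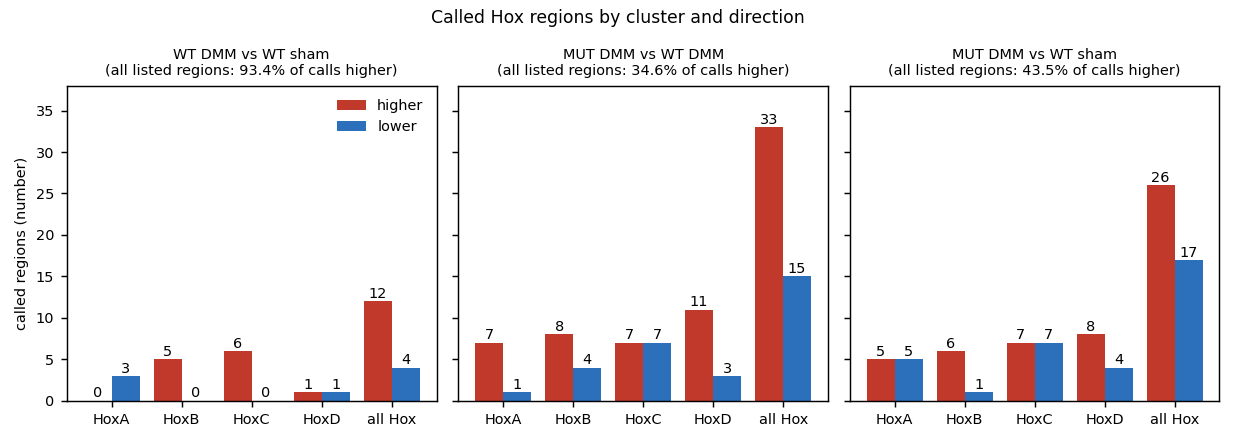
Number of called Hox regions, higher in red and lower in blue, by cluster and for all Hox genes, in each of the 3 comparisons. Relative to WT DMM, 33 regions of MUT DMM were higher and 15 lower, while 34.6% of the calls over all listed regions were higher.

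Counts over group means hide how single libraries stood. Both MUT DMM libraries were above every WT DMM library in 20 Hox regions (23.4% of all listed regions) and below every one in 7 (18.5% of all). Without the nearly empty library the numbers were 20 (24.6% of all) and 13 (53.0% of all). In 13 of the 33 higher regions the second-listed WT DMM library exceeded a MUT DMM library, and in 1 the third-listed did. MUT DMM and WT sham libraries did not overlap in 23 higher Hox regions (32.8% of all) and 15 lower ones (49.2% of all). WT DMM and WT sham libraries did not overlap in 1 higher region (1.0% of all) and 2 lower ones (1.73% of all), and without the nearly empty library in 10 higher (79.6% of all) and 2 lower ones (2.05% of all).

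With limma, fitted over all regions of a table, none of the 48 Hox regions passed in MUT DMM against WT DMM (smallest limma adjusted p = 0.675), and neither did any other region of that table (0.0% of all). At an unadjusted p under 0.05, limma gave 0 Hox regions there and 2869 of all regions. Against WT sham, WT DMM had 0 Hox regions past limma's adjusted threshold (smallest limma adjusted p = 1) and 0 at an unadjusted p under 0.05, where all regions gave 7 (0.0161%) and 361. MUT DMM against WT sham gave 11 Hox regions past it, all lower in MUT DMM, where 47.2% of all listed regions passed. In 6 of the 43 Hox regions of that table both MUT DMM libraries were at 0, as they were in 21.1% of all its regions. In all 11 regions that passed limma, the shallower MUT DMM library was at 0, a value that limma takes as exact although it allows up to 28.3 normalized counts. When limma was refitted on only those regions of MUT DMM against WT sham with a mean of at least 5 normalized counts, 1 Hox region passed. Leaving out the nearly empty library kept the direction of 32 of the 33 higher and 15 of the 15 lower Hox regions called between MUT DMM and WT DMM. The median fold of the higher ones was 1.37 without that library and 1.85 with it.

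The level of a region went with the direction. The level ranges are cut on the mean of the second-named group, which also sets the direction, so the link is partly built in. The nearly empty library, at 0 in 27 of 33 higher and 8 of 15 lower calls of MUT DMM against WT DMM, lowers the WT DMM mean there. Hox regions that were higher in MUT DMM than in WT DMM had median levels of 28.5 (MUT DMM) and 14.4 (WT DMM) normalized counts. Those that were lower had medians of 2.01 (MUT DMM) and 7.08 (WT DMM). Over all called regions the link was much the same, with medians of 32.6 and 15.7 for higher and 2.36 and 7.49 for lower calls. Of the 22 Hox regions with a WT DMM mean between 10.2 and 19.4, 20 were higher, where 54.6% of all called regions at that level were. Between 5.22 and 10.2 the Hox regions were 4 higher and 9 lower, where 18% of all called regions were higher. Below 5.22 they were 3 higher and 3 lower, where 15.5% of all were higher. With WT sham as the other group, the higher Hox regions had medians of 78.1 (MUT DMM) and 46.7 (WT sham), and the lower ones 0.735 (MUT DMM) and 9.38 (WT sham). There, 18 of the 22 Hox regions with a WT sham mean of 35.5 or more were higher, where 65.3% of all called regions at that level were. Between 5.47 and 11 in WT sham, 1 Hox region was higher and 9 were lower, where 8.87% of all were higher. In both of these level ranges, 5.22 to 10.2 in WT DMM and 5.47 to 11 in WT sham, lower calls thus outnumbered higher ones among Hox regions and among all regions.

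**Figure D2:**
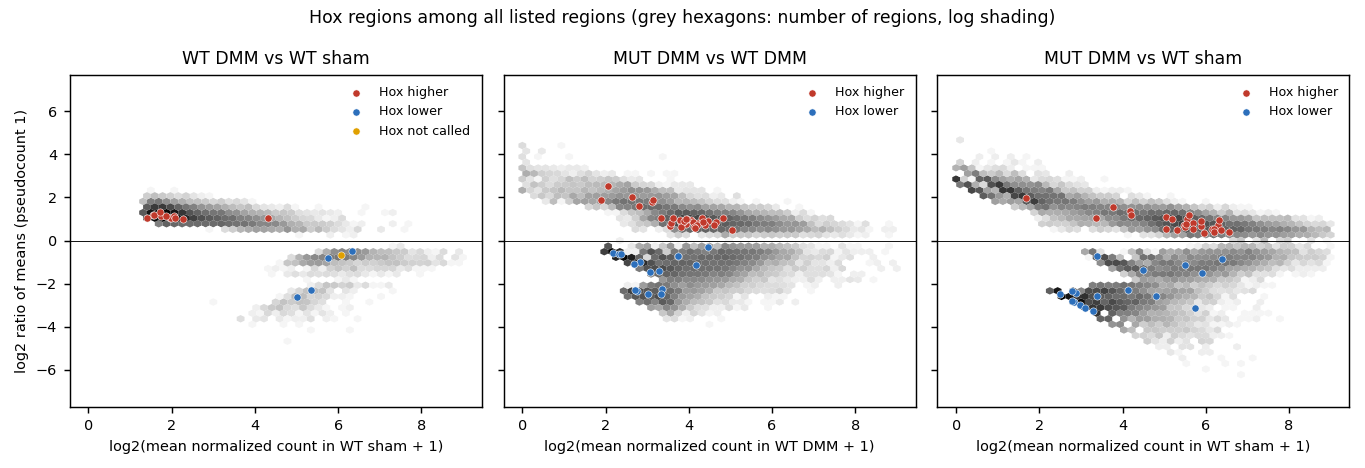
Log2 ratio of the group means, with 1 normalized count added, against the log2 mean level of the second-named group plus 1, in each comparison. Grey hexagons hold all listed regions and coloured points the Hox regions, whose lower calls against WT DMM had a median WT DMM level of 7.08 normalized counts and whose higher calls had 14.4.

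By position in the body plan, the posterior paralogues (groups 9 to 13) had more calls than the central or the anterior ones in each comparison. The classes differ in size, with 16 posterior, 15 central and 8 anterior genes. Posterior regions include Hoxc13-labelled ones up to 87544 bases from the gene. They had 24 higher and 8 lower regions in MUT DMM against WT DMM, while the central paralogues (groups 4 to 8) had 4 and 4 and the anterior ones (groups 1 to 3) 5 and 3. Against WT sham the posterior genes of MUT DMM had 16 higher and 5 lower regions, the central genes 5 and 8, and the anterior genes 5 and 4. Between WT DMM and WT sham the numbers were 5 higher and 3 lower for posterior, 5 and 1 for central, and 2 and 0 for anterior genes. Over all listed regions, 34.2% were higher and 64.7% lower in MUT DMM against WT DMM, and 43.2% and 56.1% in MUT DMM against WT sham. In WT DMM against WT sham these shares were 93.2% and 6.53%. No test of these splits was made.

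**Figure D3:**
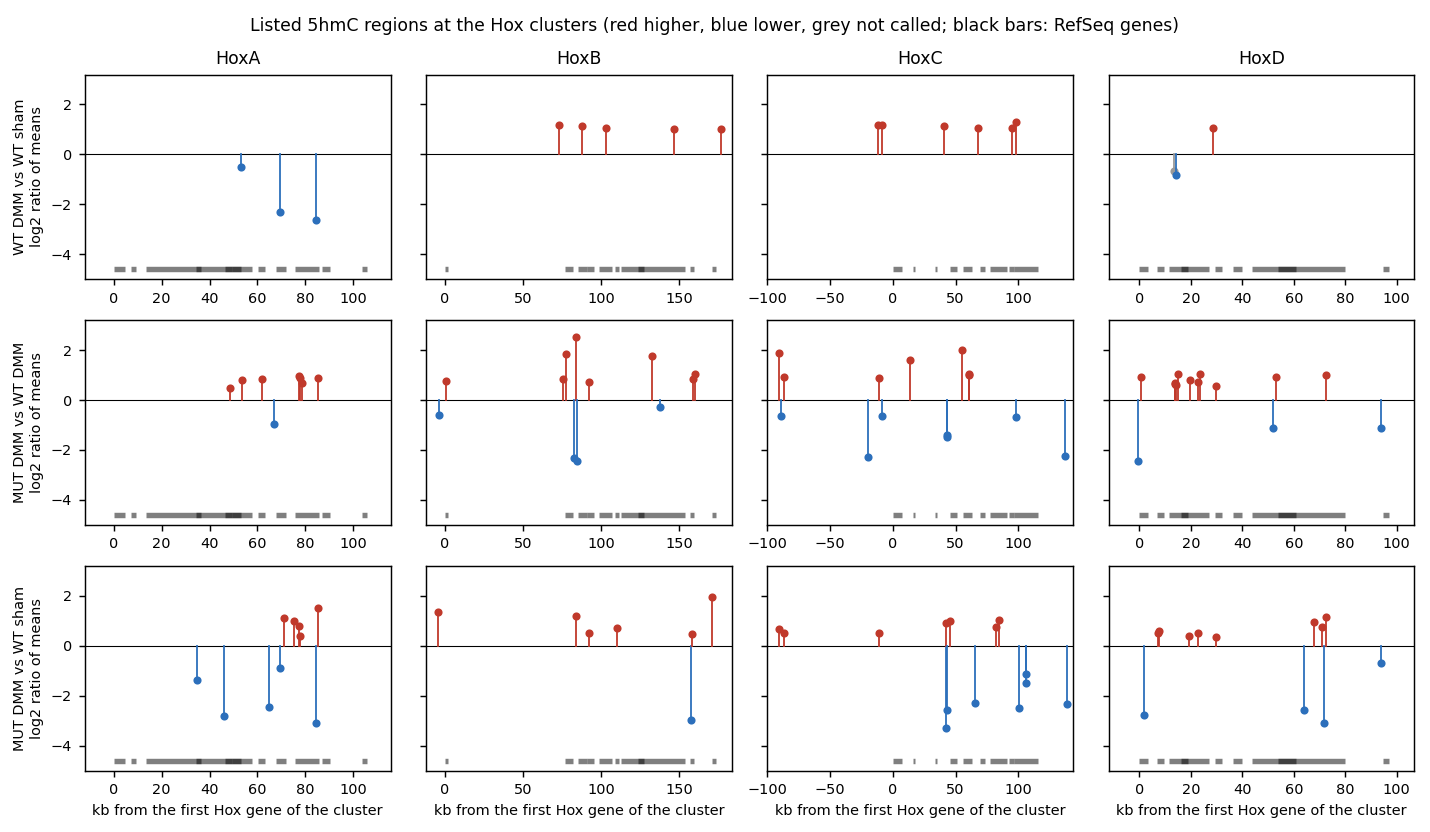
Listed regions along the 4 Hox clusters (columns) in the 3 comparisons (rows), as the log2 ratio of group means against the distance in kb from the first Hox gene of the cluster. Red points were called higher, blue lower and grey not called, and black bars are RefSeq genes, so the 3 lower HoxA regions of WT DMM relative to WT sham and the run of higher HoxD regions of MUT DMM against WT DMM can be seen in place.

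Among Hox-labelled regions, HoxA was the cluster in which WT DMM knees had only lower 5hmC than WT sham knees, with 3 regions lower. The authors' group averages had a median of 7.22 in WT DMM and 39.6 in WT sham over these regions. Of all regions listed in that comparison, 93.2% were higher and 6.53% lower. Of all called regions there with a WT sham mean of 4.24 or more, the level of these 3 HoxA regions, 73.7% were higher. A region inside HoxA with the non-Hox label HOXA11-AS1_1, chr6:52243181-52243380, was called higher in WT DMM (authors' adjusted p = 0.00271). Against WT DMM, MUT DMM had 7 higher HoxA regions and 1 lower, with median averages of 34.3 in MUT DMM and 19.4 in WT DMM. Of all listed regions, 34.2% were higher and 64.7% lower in that comparison. Against WT sham, MUT DMM had 5 higher and 5 lower, with median averages of 36.3 in MUT DMM and 38.9 in WT sham. Of all listed regions, 43.2% were higher and 56.1% lower in that comparison. Over the 3 tables, more calls fell in Hoxa10 than in any other HoxA gene. It is a posterior gene of group 10 with a role in the femur and in the uterus, and had 1 region in WT DMM against WT sham, 4 in MUT DMM against WT DMM and 5 in MUT DMM against WT sham.

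In the first of these comparisons, the Hoxa10 region chr6:52239801-52240060 had 0, 5.34 and 7.29 normalized counts in WT DMM, against 70.2, 11.4 and 12.5 in WT sham. Its neighbour in Hoxa9, a posterior gene known for its part in blood stem cells, was chr6:52224741-52225060 and had 0, 13.3 and 8.33 in WT DMM, against 87.8, 15.7 and 15.2 in WT sham. In both, every WT DMM library lay below every WT sham library, but the first-listed WT sham library alone stood about as far above its fellows as above WT DMM. Hoxa10 averaged 4.21 ± 3.77 in WT DMM (SD, n = 3) and 31.4 ± 33.6 in WT sham (SD, n = 3). The authors' adjusted p was 0.00331 for Hoxa10 and 0.00417 for Hoxa9, while limma's adjusted p was 1 for both.

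The same 2 stretches were listed in MUT DMM against WT sham, which shares the sham libraries. There the Hoxa10 region had 10.3 and 0 normalized counts in MUT DMM, against 116, 19.7 and 20.2 in WT sham, with the authors' adjusted p = 7.61e-05, the smallest of a lower HoxA region in that table. The Hoxa9 region had 31.7 and 56.7 in MUT DMM, against 160.1, 44 and 42.2 in WT sham. The shallower MUT DMM library thus lay above the second- and third-listed sham libraries at Hoxa9, and leaving out the first-listed sham library turned the log2 ratio of -0.88 to 0.04.

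**Figure D4:**
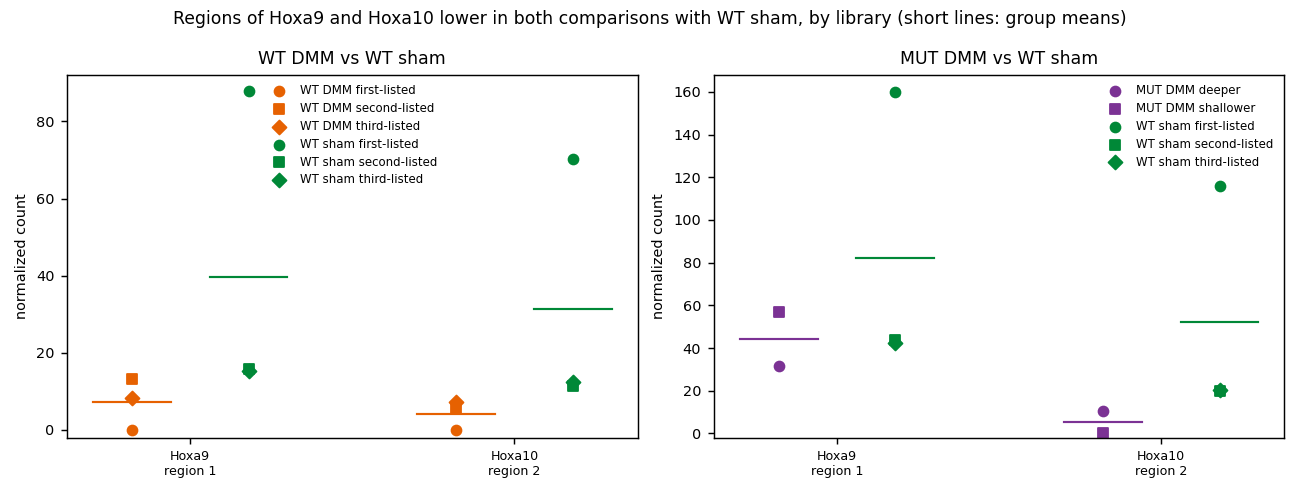
Normalized counts of each library at the Hoxa9 and Hoxa10 regions called lower in both comparisons with WT sham, with WT DMM (left panel) or MUT DMM (right panel) drawn left of WT sham and short lines for group means. The first-listed WT sham library stood at 87.8 and 70.2 in the left panel, while no other library of that panel exceeded 15.7.

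The 4 Hoxa10 regions of MUT DMM against WT DMM were all higher. The one with the smallest adjusted p in the cluster, chr6:52232581-52232880, had 33.9 and 28.4 normalized counts in MUT DMM, against 19.1, 18.8 and 8.52 in WT DMM. It averaged 31.2 ± 3.89 in MUT DMM (SD, n = 2) and 15.5 ± 6.03 in WT DMM (SD, n = 3). The authors' adjusted p was 1.4e-05, and limma's was 0.675. The region chr6:52233001-52233200 had 36.5 and 42.6 in MUT DMM, against 19.1, 25.6 and 18.3 in WT DMM. The region chr6:52240561-52240760 had 31.6 and 39.1 in MUT DMM, against 19.1, 21.1 and 16.4 in WT DMM. In all 3 the groups did not overlap, and the first-listed WT DMM library, with 2 reads in each, stood close to its fellows.

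All 3 shared bases with Hoxa10 regions that were also higher in MUT DMM against WT sham. The counterpart chr6:52232401-52232660 had 72.2 and 104 normalized counts in MUT DMM, against 48.8, 54.4 and 48 in WT sham. The next one, chr6:52232921-52233200, had 124 and 123 in MUT DMM, against 88.5, 101 and 88.2 in WT sham. The third, chr6:52240681-52240880, which reaches into a Hoxa10 promoter without a CCGG, had 20.6 and 56.7 in MUT DMM, against 8.48, 16.2 and 13.3 in WT sham. At this last one the adjusted p was the smallest of a higher HoxA region against WT sham (0.00046), and the shallower library rested on 6 reads. A further higher Hoxa10 region, chr6:52230301-52230660, had 54.5 and 132 in MUT DMM, against 39.2, 52.1 and 46.3 in WT sham. Hoxa10 thus had higher regions against both WT groups close to the lower one described above.

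Hoxa9 had a second region in MUT DMM against WT sham, chr6:52226221-52226460, which was higher with 45.6 and 94.5 in MUT DMM, against 24.4, 34.7 and 36.3 in WT sham. The other lower HoxA regions of that table lay in Hoxa4, Hoxa5 and Hoxa7. Hoxa4, a central gene, had 5.89 and 9.45 normalized counts in MUT DMM, against 15.4, 20.8 and 28.6 in WT sham at chr6:52189861-52190240. Hoxa5, a central gene needed for the lung and the neck and chest skeleton, had 0 normalized counts in both libraries of MUT DMM, against 5.83, 8.1 and 4.44 in WT sham at chr6:52201481-52201680. Hoxa7, a central gene of the trunk, had 0.74 and 0 normalized counts in MUT DMM, against 4.77, 6.95 and 7.49 in WT sham at chr6:52220201-52220420. Against WT DMM, Hoxa7 held the lower HoxA region, chr6:52222021-52222300, with 1.64 and 3.55 in MUT DMM, against 0, 6.02 and 12.2 in WT DMM.

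Hoxa6, a central gene of the chest region, is shown outside the rule that chose the values printed here, because its promoter was overlapped. At chr6:52208701-52209000 it had 34.9 and 28.4 normalized counts in MUT DMM, against 0, 30.1 and 23.1 in WT DMM. Without the nearly empty library the MUT DMM mean of 31.6 stood beside a WT DMM mean of 26.6, with overlapping libraries. Between WT DMM and WT sham, Hoxa6 at chr6:52208201-52208420 had 0, 77.4 and 90.6 in WT DMM, against 85.2, 76.5 and 77.8 in WT sham. This lower call did not keep its direction without the nearly empty library, with means of 84.0 in WT DMM and 79.8 in WT sham.

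HoxB had higher 5hmC in all 5 of its regions in WT DMM against WT sham, where 93.2% of all listed regions were higher. Of all called regions there with a WT sham mean below 4.24, the level of these 5, 100% were higher. The median group averages of the 5 were 7.03 in WT DMM and 2.91 in WT sham. Relative to WT DMM, MUT DMM had 8 higher and 4 lower regions, and in MUT DMM against WT sham 6 higher and 1 lower. The median averages were 23.1 for MUT DMM beside 10.6 for WT DMM, and 38.2 for MUT DMM beside 17.3 for WT sham. Over all listed regions, 34.2% were higher and 64.7% lower in MUT DMM against WT DMM, and 43.2% and 56.1% in MUT DMM against WT sham.

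The WT DMM gains of HoxB were small in reads. At Hoxb6, a central gene of the chest region, chr11:96297201-96297400 had 0, 10.7 and 10.4 normalized counts in WT DMM, against 2.56, 4.29 and 1.88 in WT sham. These are 0, 8 and 10 reads in WT DMM, against 8, 6 and 11 in WT sham. At Hoxb8, a central gene with roles in blood cells and the spinal cord, chr11:96282261-96282460 had 0, 6.67 and 12.5 in WT DMM, against 1.92, 2.86 and 2.22 in WT sham. Hoxb9, a posterior gene that helps to pattern the ribs, had 0, 5.34 and 11.4 in WT DMM, against 2.24, 2.15 and 1.37 in WT sham at chr11:96267501-96267720. Hoxb3, an anterior gene of the hindbrain and neck, had 0, 10.7 and 10.4 in WT DMM, against 3.52, 2.86 and 2.39 in WT sham at chr11:96340941-96341200. In these 4 the second- and third-listed WT DMM libraries were above every sham library while the first-listed was at 0. Hoxb6 had the smallest adjusted p of the cluster here (0.00281).

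The HoxB gain of MUT DMM over WT DMM with the smallest adjusted p was in Hoxb3. Its region chr11:96326741-96326940 had 25 and 32 normalized counts in MUT DMM, against 0, 14.3 and 8.52 in WT DMM, with the authors' adjusted p = 4.18e-05 and limma's 0.675. Hoxb3 averaged 28.5 ± 4.92 in MUT DMM (SD, n = 2) and 7.6 ± 7.19 in WT DMM (SD, n = 3) there. A second Hoxb3 region, chr11:96332101-96332300, was called lower with 13.1 and 21.3 in MUT DMM, against 0, 22.6 and 40.8 in WT DMM, and the call turned when the third-listed WT DMM library, the highest of its group, was left out. Hoxb2, an anterior gene of the hindbrain, was higher with 39.1 and 42.6 in MUT DMM, against 0, 30.8 and 26.2 in WT DMM at chr11:96354421-96354700.

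Hoxb9 and Hoxb7 were called in the same direction against both WT groups. At Hoxb9, chr11:96277981-96278200 had 14.3 and 32 normalized counts in MUT DMM, against 0, 5.27 and 4.26 in WT DMM. The overlapping chr11:96278061-96278300 had 25 and 56.7 in MUT DMM, against 20.7, 19.7 and 11.7 in WT sham in the other table. At Hoxb7, a central gene of the trunk, the region starting at 96286621 had 29.7 and 28.4 normalized counts in MUT DMM, against 19.1, 18.1 and 14.6 in WT DMM. In the comparison with WT sham, chr11:96286621-96286900 had 105 and 94.5 in MUT DMM, against 70.5, 79.9 and 58 in WT sham. The groups did not overlap in any of these, and at Hoxb7 all 8 libraries of both tables held reads. Hoxb7 averaged 99.9 ± 7.66 in MUT DMM (SD, n = 2) and 69.5 ± 11 in WT sham (SD, n = 3) in that second table, a difference of 0.52 on the log2 scale.

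Hoxb9 had 2 more higher regions and 1 lower against WT DMM. The higher chr11:96270161-96270380 had 31.8 and 28.4 normalized counts in MUT DMM, against 0, 27.8 and 20.7 in WT DMM. The higher chr11:96272141-96272360 had 10.8 and 14.2 in MUT DMM, against 0, 7.52 and 0.61 in WT DMM. The lower chr11:96276681-96276960 had 0.70 and 0 in MUT DMM, against 9.56, 2.26 and 5.48 in WT DMM. Here the first-listed WT DMM value was 1 read. The lower region with the smallest adjusted p of HoxB was in Hoxb8, where chr11:96278761-96279040 had 0.94 and 0 in MUT DMM, against 9.56, 3.76 and 7.91 in WT DMM (authors' adjusted p = 0.000128). It was likewise of few reads, 4 and 0 in MUT DMM, against 1, 5 and 13 in WT DMM.

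Against WT sham, MUT DMM was higher at Hoxb13, the most posterior HoxB gene, active in the prostate and the tail end of the spinal cord, with 24.3 and 66.1 normalized counts in MUT DMM, against 13.3, 16.2 and 21.4 in WT sham at chr11:96189941-96190200. This had the smallest adjusted p of a higher HoxB region in that table (0.000488). Hoxb5, a central gene, had 87.6 and 170.1 in MUT DMM, against 82.2, 74.1 and 75.7 in WT sham at chr11:96304381-96304700. Hoxb2 had 62.6 and 47.2 in MUT DMM, against 35, 45.1 and 36.1 in WT sham at chr11:96352821-96353100. At Hoxb13 and Hoxb5 the shallower MUT DMM library stood above the deeper one, which was the case in 15 of the 26 higher Hox regions of the table. Hoxb1, an anterior gene that sets the identity of a hindbrain segment, had 4.42 and 18.9 in MUT DMM, against 2.12, 2.32 and 2.22 in WT sham at chr11:96365481-96365740, over its promoter. The lower region was again in Hoxb2, close to the higher one, at chr11:96352161-96352400 with 0 in both libraries of MUT DMM, against 3.71, 10.4 and 6.66 in WT sham.

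HoxC was the cluster in which MUT DMM calls were evenly split, with 7 higher and 7 lower against WT DMM and 7 higher and 7 lower against WT sham. Over all listed regions, 34.2% were higher and 64.7% lower against WT DMM, and 43.2% and 56.1% against WT sham. For WT DMM over WT sham all 6 HoxC regions were higher, where 93.2% of all listed regions were. All but the Hoxc4 region chr15:103015941-103016220 had a WT sham mean below 4.24, a level at which 100% of all called regions there were higher. The median group averages of the HoxC regions were 7.48 in WT DMM and 2.89 in WT sham in that table, and 13.1 in MUT DMM and 8.29 in WT DMM. In MUT DMM against WT sham they were 26.8 in MUT DMM and 39.5 in WT sham. Hoxc13 and Hoxc4, at the posterior and the anterior end of the cluster, had the most regions.

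One Hoxc4 region stood apart among the 17 Hox regions of WT DMM against WT sham. Hoxc4 is a central gene that acts in the neck and chest. Its region chr15:103015941-103016220 had 31.4, 38.7 and 50.0 normalized counts in WT DMM, against 22.7, 18.6 and 14.9 in WT sham, and it averaged 40.0 ± 9.38 in WT DMM (SD, n = 3) and 18.7 ± 3.94 in WT sham (SD, n = 3). It was the single higher Hox region in which all 3 WT DMM libraries lay above all 3 WT sham libraries, and had the smallest adjusted p of the 17 (0.000264 by the authors' test and 1 by limma). The 3 WT DMM values rest on 2, 29 and 48 reads. By RefSeq bounds the region lies in Hoxc5 and not in Hoxc4.

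The other HoxC gains of WT DMM had a WT sham mean under 5 normalized counts. Hoxc13, the most posterior HoxC gene and a regulator of hair and nail keratins, had 0, 8 and 16.7 normalized counts in WT DMM, against 4.48, 2.86 and 2.05 in WT sham at chr15:102912521-102912820. It also had 0, 12 and 5.21 in WT DMM, against 1.6, 2.86 and 1.54 in WT sham at chr15:102909121-102909360. Hoxc10, a posterior gene of the hindlimb, had 0, 6.67 and 14.6 in WT DMM, against 1.28, 3.58 and 3.08 in WT sham at chr15:102962161-102962360. Hoxc8, a central gene of the chest and of forelimb motor neurons, had 0, 12 and 11.4 in WT DMM, against 4.16, 3.58 and 1.88 in WT sham at chr15:102988921-102989240. In each the nearly empty library was at 0 and the other 2 WT DMM libraries were above the sham libraries. That was not so for a second Hoxc4 region, chr15:103018981-103019220, with 0, 2.67 and 18.7 in WT DMM, against 1.28, 2.86 and 2.73 in WT sham, where the gain rested on the third-listed WT DMM library.

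Both a Hoxc13 and a Hoxc4 gain of WT DMM overlapped a lower call of MUT DMM against WT DMM, a comparison that shares the WT DMM libraries. For Hoxc13, chr15:102912481-102912700 had 1.17 and 3.55 normalized counts in MUT DMM, against 0, 2.26 and 10.3 in WT DMM. For Hoxc4, chr15:103019081-103019320 had 3.74 and 10.7 in MUT DMM, against 0, 14.3 and 22.5 in WT DMM. In both the third-listed WT DMM library was the highest of its group, and without it the log2 ratios were 0.66 and 0.01 in place of -0.63 and -0.69.

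The region with the smallest adjusted p of all 108 was upstream of Hoxc13. At chr15:102910181-102910560, 7544 bases from the gene by the authors' distance, MUT DMM against WT sham gave 115 and 94.5 normalized counts in MUT DMM, against 66.3, 78.7 and 72.7 in WT sham. The authors' adjusted p was 2.6e-06 and limma's 0.106. It averaged 105 ± 14.4 in MUT DMM (SD, n = 2) and 72.6 ± 6.22 in WT sham (SD, n = 3). Relative to WT DMM, the region with the same start had 36.5 and 35.5 in MUT DMM, against 19.1, 15 and 23.7 in WT DMM (authors' adjusted p = 0.000264). Both MUT DMM libraries were thus above all 6 WT libraries in their own tables, by 0.52 and 0.87 on the log2 scale, and the first-listed WT DMM value of 19.1 rests on 2 reads.

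A pair of regions farther from Hoxc13, 83924 to 87544 bases away by the authors' distance, was also higher against both WT groups. The one at chr15:102830301-102830580 had 28.1 and 35.5 normalized counts in MUT DMM, against 0, 7.52 and 15.8 in WT DMM, with the smallest adjusted p of a higher HoxC region in that table (5.83e-05). In the other table, chr15:102830301-102830560 had 88.4 and 94.5 in MUT DMM, against 61.5, 52.1 and 59.1 in WT sham. The groups did not overlap in either. At chr15:102833901-102834160 the values were 28.8 and 21.3 in MUT DMM, against 0, 18.1 and 20.1 in WT DMM. Against WT sham, chr15:102833901-102834180 had 90.6 and 56.7 in MUT DMM, against 58.3, 45.1 and 49.6 in WT sham, where the shallower MUT DMM library lay below the first-listed sham library. Between these 2 regions, chr15:102832101-102832300 was lower with 0.94 and 3.55 in MUT DMM, against 0, 5.27 and 6.7 in WT DMM. A further lower Hoxc13 region, chr15:102901441-102901740, had 0.70 and 0 in MUT DMM, against 9.56, 2.26 and 4.87 in WT DMM.

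Hoxc10 was lower in MUT DMM against both WT groups. Its region chr15:102964361-102964740 had 1.87 and 3.55 normalized counts in MUT DMM, against 9.56, 5.27 and 11.6 in WT DMM, the smallest adjusted p of a lower HoxC region in that table (7.84e-05). Relative to WT sham, chr15:102964361-102964640 had 1.47 and 0 in MUT DMM, against 7.42, 11.6 and 9.15 in WT sham. The groups did not overlap in either table. A neighbour, chr15:102964001-102964200, was lower against WT DMM with 0.47 and 3.55 in MUT DMM, against 9.56, 5.27 and 7.31 in WT DMM. Against WT sham a region at chr15:102963201-102963480 was lower with 0 in both libraries of MUT DMM, against 3.71, 13.9 and 8.6 in WT sham. The well-read region between them, chr15:102963581-102963860, was higher with 71.4 and 151 in MUT DMM, against 58.3, 57.9 and 57.7 in WT sham. The directions thus alternated along this short stretch, with the lower calls at thinly read positions. All of these lie outside the RefSeq bounds of Hoxc10.

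Other posterior HoxC genes were higher in MUT DMM against WT DMM. Hoxc9, which patterns the chest part of the spinal cord, had 22.9 and 24.9 normalized counts in MUT DMM, against 0, 8.27 and 7.31 in WT DMM at chr15:102976481-102976840. It also had 31.8 and 28.4 in MUT DMM, against 0, 24.1 and 19.5 in WT DMM at chr15:102981721-102981920. Hoxc12, a gene of the hair follicle and tail region, had 19.4 and 21.3 in MUT DMM, against 0, 12 and 6.09 in WT DMM at chr15:102934941-102935220. In all 3 the MUT DMM libraries were above every WT DMM library, also without the nearly empty one.

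Against WT sham, Hoxc6, a central gene at the border of neck and chest, was higher at 2 regions. At chr15:103003101-103003420 it had 53 and 94.5 normalized counts in MUT DMM, against 45.6, 47.5 and 38.3 in WT sham. At chr15:103005641-103005860 it had 20.6 and 18.9 in MUT DMM, against 7.95, 11.6 and 8.04 in WT sham. Regions labelled Hoxc5, a central gene, were higher at chr15:102966681-102966940 with 45.6 and 94.5 in MUT DMM, against 39.8, 30.1 and 35.5 in WT sham, a position that RefSeq places in Hoxc10. The other Hoxc5 region, chr15:102986221-102986420, was lower with 5.15 and 0 in MUT DMM, against 18, 15.1 and 16.6 in WT sham. It had the smallest authors' adjusted p of a lower HoxC region in that table (0.000466).

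All 4 Hoxc4 regions of MUT DMM against WT sham were lower. At chr15:103021241-103021500 the region had 0 normalized counts in both libraries of MUT DMM, against 5.83, 4.63 and 3.33 in WT sham. At chr15:103059981-103060180 it had 0.74 and 0 in MUT DMM, against 4.77, 5.79 and 6.93 in WT sham. At chr15:103027241-103027440 it had 39.8 and 0 in MUT DMM, against 41.4, 41.7 and 49.6 in WT sham, and at chr15:103027461-103027820 40.5 and 0 in MUT DMM, against 55.7, 57.9 and 63.8 in WT sham. In this neighbouring pair the deeper MUT DMM library stood near the sham libraries, and the lower mean came mostly from the 0 of the shallower one, which allows up to 28.3 normalized counts. Against WT DMM, Hoxc4 was lower at chr15:103058381-103058580 with 2.34 and 0 in MUT DMM, against 19.1, 3.01 and 5.48 in WT DMM, where the first-listed WT DMM library held 2 reads.

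HoxD was mostly higher in MUT DMM, with 11 higher and 3 lower regions against WT DMM and 8 higher and 4 lower against WT sham. The median group averages were 26.3 for MUT DMM beside 13.5 for WT DMM, and 69.7 for MUT DMM beside 44.6 for WT sham. Between WT DMM and WT sham HoxD had 1 higher region, 1 lower and 1 that was not called. Over all listed regions, 34.2% were higher and 64.7% lower in MUT DMM against WT DMM, and 43.2% and 56.1% in MUT DMM against WT sham. In WT DMM against WT sham these shares were 93.2% and 6.53%. Hoxd11, a posterior gene of the middle limb segment, had the most calls of the cluster against WT DMM, with 5, and the anterior gene Hoxd3 the most against WT sham, also with 5.

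Hoxd11 was listed at its promoter in both tables with WT DMM, in opposite directions. For WT DMM over WT sham, chr2:74682141-74682420, which covers most of the promoter printed above, had 0, 65.4 and 23.9 normalized counts in WT DMM, against 50.0, 52.2 and 57.2 in WT sham. It averaged 29.8 ± 33.1 in WT DMM (SD, n = 3) and 53.1 ± 3.73 in WT sham (SD, n = 3). The authors' adjusted p was 0.00175 and limma's 1. The third-listed WT DMM library was below every sham library and the nearly empty one at 0, while the second-listed was above them all. The region before it, chr2:74681621-74681960, showed the same order with 0, 96 and 28.1 in WT DMM, against 61.5, 72.2 and 64.4 in WT sham, and was the Hox region that did not pass the authors' threshold (adjusted p = 0.159).

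The Hoxd11 stretch of MUT DMM against WT DMM held 4 neighbouring regions, all called higher. The region chr2:74681781-74682000 had 24.1 and 17.8 normalized counts in MUT DMM, against 0, 32.3 and 6.7 in WT DMM. The region chr2:74682021-74682220, over the first part of the promoter, had 21.3 and 14.2 in MUT DMM, against 0, 24.8 and 7.31 in WT DMM. The region chr2:74682301-74682520, over its CCGG-free last 72 bases, had 29.9 and 21.3 in MUT DMM, against 0, 35.4 and 14 in WT DMM. In these 3 the second-listed WT DMM library was above both MUT DMM libraries, so the higher calls came from the third-listed library and the 0 of the first-listed. In the region beyond the promoter, chr2:74682821-74683220, the groups did not overlap, with 58.7 and 56.9 in MUT DMM, against 0, 54.9 and 26.8 in WT DMM. It averaged 57.8 ± 1.32 in MUT DMM (SD, n = 2) and 27.2 ± 27.5 in WT DMM (SD, n = 3) and had the smallest adjusted p of a higher HoxD region in that table (0.000337).

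**Figure D5:**
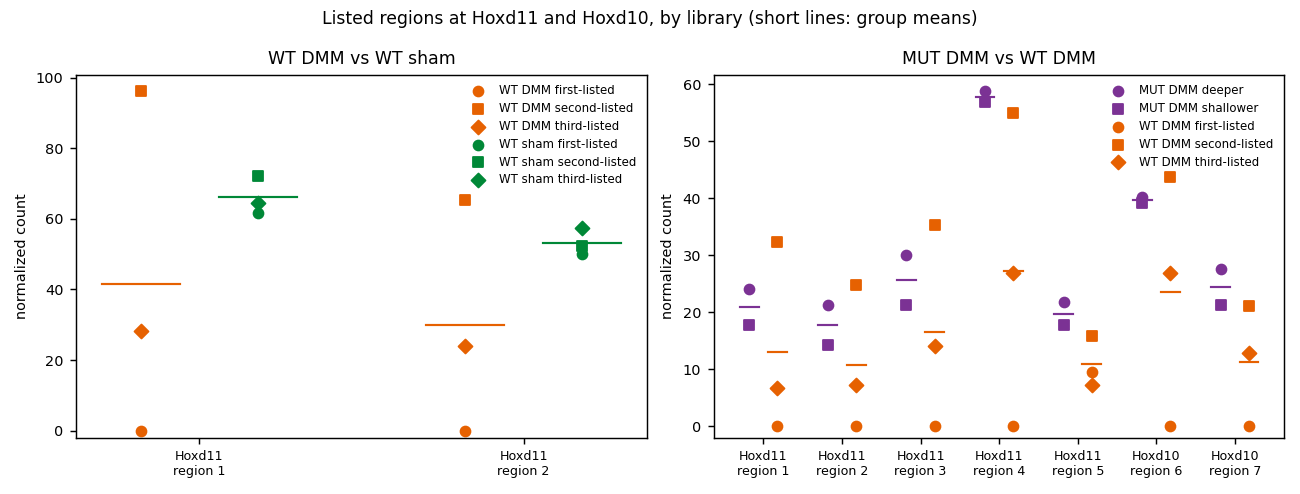
Normalized counts of each library at the regions of Hoxd11 in WT DMM against WT sham (left panel) and of Hoxd11 and Hoxd10 in MUT DMM against WT DMM (right panel), numbered along the chromosome, with short lines for group means. The second-listed WT DMM library stood at 65.4 in region 2 of the left panel, above the 3 WT sham libraries, while the third-listed stood at 23.9 and the first-listed at 0.

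Farther along, 2 regions labelled Hoxd11 lie inside the RefSeq bounds of Hoxd10. Against WT DMM, chr2:74687801-74688020 had 21.8 and 17.8 normalized counts in MUT DMM, against 9.56, 15.8 and 7.31 in WT DMM. Against WT sham, chr2:74687441-74687700 had 105 and 85 in MUT DMM, against 67.9, 76.4 and 73 in WT sham. MUT DMM was above every WT library of the table in each.

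Hoxd10 was higher against both WT groups. Relative to WT sham, chr2:74690901-74691220 had 127 and 104 normalized counts in MUT DMM, against 79, 81 and 83.8 in WT sham. It averaged 115 ± 16.1 in MUT DMM (SD, n = 2) and 81.3 ± 2.39 in WT sham (SD, n = 3). The authors' adjusted p, 3.02e-05, was the smallest of a HoxD region in the table, and limma's was 0.102. Against WT DMM the overlapping chr2:74690941-74691200 had 40.2 and 39.1 in MUT DMM, against 0, 43.6 and 26.8 in WT DMM, with the second-listed WT DMM library above MUT DMM. At the Hoxd10 promoter, chr2:74691401-74691740 had 27.6 and 21.3 in MUT DMM, against 0, 21.1 and 12.8 in WT DMM. This region covers the first 100 bases of the promoter, and so not all of its 10 CCGG sites. There MUT DMM was above the WT DMM libraries, by little over the second-listed.

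Hoxd9, a posterior gene of the limb and lower spine, was higher at neighbouring positions in all 3 tables. In WT DMM against WT sham, chr2:74696641-74696840 had 0, 5.34 and 8.33 normalized counts in WT DMM, against 1.6, 2.15 and 1.2 in WT sham, the single higher HoxD region there (authors' adjusted p = 0.00263). Its WT sham mean was 1.65, and of all called regions there with a mean below 4.24, 100% were higher. For MUT DMM over WT DMM, chr2:74698041-74698240 had 30.2 and 21.3 in MUT DMM, against 0, 32.3 and 18.3 in WT DMM. For MUT DMM over WT sham, chr2:74697861-74698060 had 101 and 56.7 in MUT DMM, against 65.8, 60.2 and 58.2 in WT sham. The groups overlapped in the last pair of tables, and the sham comparison turned to a log2 ratio of -0.11 without the deeper MUT DMM library.

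Of the most posterior HoxD genes, which shape the hand and foot, Hoxd12 was higher in MUT DMM against WT sham at 2 regions. At chr2:74675121-74675360 it had 54.5 and 37.8 normalized counts in MUT DMM, against 37.6, 30.1 and 27.7 in WT sham. At chr2:74675701-74675940 it had 68.5 and 66.1 in MUT DMM, against 48.8, 45.1 and 37.7 in WT sham. Both MUT DMM libraries were above every sham library, in the first by less than 1 read of the shallower library. Hoxd13 was higher against WT DMM at chr2:74668701-74668900 with 30.2 and 21.3 in MUT DMM, against 0, 21.1 and 17.6 in WT DMM. It was lower against WT DMM at chr2:74667381-74667620 with 1.64 and 0 in MUT DMM, against 19.1, 3.01 and 4.87 in WT DMM, and lower against WT sham at chr2:74669861-74670140 with 0 in both libraries of MUT DMM, against 6.89, 6.95 and 3.88 in WT sham.

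At the anterior end of HoxD, Hoxd3, which helps to form the first neck vertebrae, had regions in both directions. Against WT sham, chr2:74735761-74736240 was higher with 87.6 and 217 normalized counts in MUT DMM, against 82.7, 83.4 and 69.1 in WT sham. A second one, chr2:74739041-74739320, was higher with 60.4 and 94.5 in MUT DMM, against 41.4, 48.6 and 45.8 in WT sham. The third higher one, chr2:74740721-74740940, had 45.6 and 170.1 in MUT DMM, against 44.5, 59 and 38.8 in WT sham, where the deeper MUT DMM library lay among the sham libraries and 18 reads of the shallower one carried the mean. Its neighbour chr2:74740501-74740740 was higher against WT DMM with 30.6 and 28.4 in MUT DMM, against 0, 25.6 and 17.1 in WT DMM. The lower ones were chr2:74731901-74732280 with 7.36 and 0 in MUT DMM, against 20.7, 33.6 and 26.1 in WT sham, and chr2:74739741-74740000 with 0 in both libraries of MUT DMM, against 3.18, 12.7 and 6.93 in WT sham. Against WT DMM a further Hoxd3 region, chr2:74720061-74720380, was lower with 7.49 and 7.11 in MUT DMM, against 0, 12.8 and 38.4 in WT DMM, and the call turned without the third-listed WT DMM library.

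Hoxd1, an anterior gene with a role in pain-sensing neurons of the mouse, was lower in MUT DMM against both WT groups. Against WT DMM, chr2:74761821-74762200 had 0.47 and 3.55 normalized counts in MUT DMM, against 0, 6.02 and 10.3 in WT DMM, with the smallest adjusted p of the 48 Hox regions (1.34e-05 by the authors' test and 0.978 by limma). Against WT sham, chr2:74761821-74762120 had 1.47 and 9.45 in MUT DMM, against 9.54, 9.26 and 9.71 in WT sham (authors' adjusted p = 0.000685). The MUT DMM values rest on 2 reads in the deeper and 1 read in the shallower library, and that 1 read put the shallower library within the sham range.

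The 9 remaining regions were each called, but the libraries of their groups overlapped also without the nearly empty one. They lay in Hoxa5, Hoxa7, Hoxa10, Hoxb13 (2 regions), Hoxb2, Hoxc9 and Hoxd3 in MUT DMM against WT DMM, and in Hoxb1 in WT DMM against WT sham. The lower Hoxb13 region had means of 2.01 in MUT DMM, against 3.52 in WT DMM. The 7 higher ones had means of 19.8 to 45.4 in MUT DMM and 9.06 to 31.7 in WT DMM. The Hoxb1 region had means of 8.72 in WT DMM and 3.82 in WT sham.

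Between tables, 20 pairs of Hox regions shared at least 1 base, and each pair of tables shares a group. MUT DMM was higher against both WT groups in 11 pairs and lower against both in 2. In 5 pairs the change of WT DMM against WT sham had the opposite sign in MUT DMM against WT DMM, 2 at Hoxc13 and Hoxc4 with WT DMM higher and 3 at Hoxd11 with WT DMM lower, of which 1 holds the region that did not pass the authors' threshold. In the other 2, at Hoxa9 and Hoxa10, WT DMM and MUT DMM were both lower than WT sham. The shared WT DMM or sham libraries enter both sides of such a pair, so the counts describe positions and are no second observation.

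Non-Hox labels inside the 4 clusters gave 12 more regions called higher and 5 lower in MUT DMM against WT DMM (34.2% and 64.7% of all listed regions), 6 higher and 2 lower in MUT DMM against WT sham (43.2% and 56.1% of all), and 4 higher in WT DMM against WT sham (93.2% of all). They include the microRNA genes Mir196b, Mir196a-1 and Mir10a, which lie among the Hox genes and repress Hox messages, each higher in MUT DMM against WT DMM. Mir10a was also higher against WT sham (authors' adjusted p = 1.66e-05). Of 17 non-coding genes listed for the clusters, 5 had a region against WT DMM under their exact symbol, 4 regions being higher and 1, at Hoxb3os, lower. Regions labelled HOTAIRM1_2, HOTAIRM1_5 and HOXA11-AS1_6, each higher, and HOTTIP_3, lower, were not matched by symbol and are not in this count.

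The TALE proteins (PBX, MEIS and PKNOX) bind DNA together with Hox proteins. Over their 9 genes, 13 regions were higher and 27 lower in MUT DMM against WT DMM, where 34.2% and 64.7% of all listed regions were. Meis1 had 1 higher and 7 lower regions there. Against WT sham the cofactor genes of MUT DMM had 16 higher and 19 lower regions, and in WT DMM against WT sham 25 higher and 1 lower. The cofactor counts thus lay near the shares of the whole tables, and no test of the difference from the Hox genes was made.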

How the data were processed

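Reduced representation hydroxymethylation profiling was used on knee cartilage DNA: per the labels' protocols, MspI cut CCGG sites, glucose was put on 5hmC at the ligated ends, a repeated digest removed unprotected fragments and 15 PCR cycles followed. HISAT2 2.1.0, bcl2fastq 2.20.0, bedtools, SAMtools, Trim Galore 0.5.0 and the build mm10 are named in the submitters' processing notes. The region caller and scaling factor are not given in the sources used here. Deposited were 3 tables of regions built from 200-base windows in 20-base steps, each with a window p-value of at most 0.0001. Per the file headers, they hold p-values of the authors' test, raw and adjusted, a normalized count per library (joined in 1 cell), the mean signal of each group, a log2 fold change and, used as a score, length and distance to the nearest gene. The 3 joined values carry no replicate number.

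Hox regions were taken by the authors' gene label. The members and gene lists were chosen with earlier results of these data known. Reads were recovered as whole multiples of the smallest step (tolerance 0.02 normalized counts), in at least 99.995% of regions per library. Recovered reads in the listed regions were 4726 to 2187392 per library in WT DMM against WT sham, 52972 to 5889464 in MUT DMM against WT DMM and 302082 to 7860851 in MUT DMM against WT sham. A MUT DMM entry identical to another was counted once, except in the cluster medians. These were taken from the authors' group averages, in which both identical entries enter. At Hoxa10 (chr6:52230301-52230660, against WT sham) that average was 80.4 in MUT DMM, and the mean of the distinct libraries was 93.4. The deposited values are normalized and selected, so no count model was run. Log2 values (pseudocount 1) were tested with limma 3.58.1 (R 4.3.3) over all regions of each table with Benjamini-Hochberg adjustment. In simulated data with 200 regions changed 4-fold, limma recovered 100% of these, and 4.76% to 9.50% of its calls were false. All simulated libraries had the same small spread and none was nearly empty, so this does not show how limma performs on the real libraries. A call is the authors' adjusted p under 0.05, and its direction is that of the recomputed means. Library values are printed for the region of smallest adjusted p per cluster, comparison and direction, for regions that share bases between tables, and for those whose groups do not overlap without the nearly empty library (97 of 108). The labels call the replicates biological but name no animals, so limma's p-values cover the spread of these libraries, which may be technical. Gene bounds and promoters are from RefSeq GRCm38.p6. PCR reads carry no molecular identifiers. The control without glucosyltransferase and the MUT sham libraries are not analysed here, and no background was taken off.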

Additional observations from a re-analysis of the deposited data

How the results depend on the processing

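No paired analysis was possible because the joined library values carry no replicate number. Over the counts of Hox calls, of Hox regions with groups that do not overlap and of limma calls, 108 of 120 alternative values stayed within 1.5 times the value reported. Keeping regions with a mean of at least 5 normalized counts gave 4 higher calls in WT DMM against WT sham (12 without the filter). It gave 7 lower calls in MUT DMM against WT DMM (15) and 10 lower calls in MUT DMM against WT sham (17). Limma refitted on the kept regions gave 1 Hox call in MUT DMM against WT sham (11). Counting every joined value as a library gave 20 limma calls there. Leaving out single libraries in WT DMM against WT sham gave 1 to 10 higher and 2 to 4 lower Hox regions without overlap and 0 to 10 limma calls, the 10 in both cases without the first-listed WT DMM library. In MUT DMM against WT DMM it gave 20 to 32 higher (32 without the second-listed WT DMM library) and 7 to 13 lower Hox regions without overlap (13 without the first-listed), and 0 to 2 limma calls. In MUT DMM against WT sham it gave 8 to 29 limma calls, 29 without the deeper MUT DMM library. Among the log2 ratios of single regions, 12 of 108 changed sign when a library was left out. For WT DMM against WT sham the range was from -0.39 to 1.55 at Hoxb1 (chr11:96371201), from -0.49 to 1.83 at Hoxc4 (chr15:103018981) and from -1.03 to 0.072 at Hoxa6 (chr6:52208201). For MUT DMM against WT DMM the range was from -1.62 to 0.26 at Hoxb13 (chr11:96190621), from -0.84 to 0.57 at Hoxb3 (chr11:96332101), from -1.26 to 0.66 at Hoxc13 (chr15:102912481), from -1.49 to 0.0097 at Hoxc4 (chr15:103019081), from -1.68 to 0.17 at Hoxd3 (chr2:74720061) and from -0.067 to 1.16 at Hoxa5 (chr6:52203921). For MUT DMM against WT sham the range was from -0.11 to 0.71 at Hoxd9 (chr2:74697861), from -0.055 to 1.82 at Hoxd3 (chr2:74740721) and from -1.35 to 0.035 at Hoxa9 (chr6:52224701). The cause of these changes was not tested. Depth limits both sparse libraries: a 0 of the first-listed WT DMM library stood in 27 of 33 higher and 8 of 15 lower Hox calls of MUT DMM against WT DMM, where a 0 allows up to 28.7 normalized counts. The shallower MUT DMM library was at 0 in 14 of 17 lower and 0 of 26 higher Hox calls of MUT DMM against WT sham, where a 0 allows up to 28.3.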

Other observations

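Genes beside the clusters and regulators of Hox transcription were counted from lists chosen with earlier results of these data known. Over all listed regions, 34.2% were higher and 64.7% lower in MUT DMM against WT DMM, 43.2% and 56.1% in MUT DMM against WT sham, and 93.2% and 6.53% in WT DMM against WT sham. No list below was tested against these shares. The 10 genes that flank the clusters had 7 higher and 23 lower regions in MUT DMM against WT DMM, 5 higher and 15 lower in MUT DMM against WT sham, and 16 higher and 0 lower in WT DMM against WT sham. Hibadh, beside HoxA, had 0 higher and 6 lower regions in MUT DMM against WT DMM, and Skap2, beside HoxA, had 3 and 6. The even-skipped genes Evx1 and Evx2, homeobox genes at the posterior ends of HoxA and HoxD, together had 1 higher and 1 lower region in MUT DMM against WT DMM, 3 and 1 in MUT DMM against WT sham, and 1 and 0 in WT DMM against WT sham.

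Set beside the same shares, the 26 regulators, which include Polycomb and Trithorax genes and retinoic acid receptors, had 26 higher and 52 lower regions in MUT DMM against WT DMM, 42 and 50 in MUT DMM against WT sham, and 31 and 2 in WT DMM against WT sham. Jarid2, a partner of the Polycomb methyltransferase, had 3 higher and 12 lower regions in MUT DMM against WT DMM. Rarb, a retinoic acid receptor gene, had 13 higher and 1 lower in WT DMM against WT sham.

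Among marker genes, also to be read beside these shares, the cartilage list had 5 higher and 3 lower regions in MUT DMM against WT DMM, 6 and 5 in MUT DMM against WT sham, and 0 and 1 in WT DMM against WT sham. The endothelial genes Pecam1 and Cdh5 had 4 and 14, 5 and 21, and 10 and 3 in the same order of comparisons. The muscle genes had 4 and 4, 5 and 2, and 3 and 1, and the blood genes had 0 and 4, 4 and 4, and 4 and 0. Their part in the Hox counts was not tested.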
